A study of Mus musculus with 6 samples.

Results

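The 9 genes described here encode the subunits of 2 families of glutamate-gated ion channels, the AMPA receptors (Gria1, Gria2, Gria3 and Gria4) and the kainate receptors (Grik1, Grik2, Grik3, Grik4 and Grik5). They were chosen by gene symbol as the complete set of subunit genes of both families, 9 of the 39179 genes in the count table. The families themselves were picked from results of this same comparison already known, namely the differences between the groups, so every difference given for a member is a description and lends no independent support. All 9 were matched to 1 row each.

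RNA was taken from neural progenitor cells of the embryonic day 13.5 cerebral cortex of CD1 mice, differentiated in culture flasks. One group of 3 libraries came from cells stably expressing green fluorescent protein (GFP). The other 3 came from cells stably expressing G392E neuroserpin (G392E-NS), a mutant of a neuronal serine protease inhibitor that polymerises in the endoplasmic reticulum and causes the dementia FENIB. The study asks how the polymer-forming mutant alters gene expression relative to GFP. The labels name neither the promoter of the introduced gene nor whether a line is 1 clone, and do not say that replicates are separate cultures, so p-values reflect no more than the spread of these libraries, which may be technical. The libraries held 15507487 to 24835835 counts.

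AMPA receptors carry most fast excitatory transmission in the brain and are assembled as tetramers from the 4 Gria subunits. Kainate receptors are tetramers of the Grik subunits. Grik1, Grik2 and Grik3 form channels on their own, whereas Grik4 and Grik5 bind agonist with high affinity but need a partner from the first 3. In both families the pore is lined by a re-entrant loop with the Q/R site, where the genome encodes glutamine. In Gria2 almost completely, and in Grik1 and Grik2 in part, the enzyme encoded by Adarb1 edits this codon in the RNA to one for arginine, which makes the channel nearly impermeable to calcium. Glial precursors and astrocytes as well as neurons express members of both families.

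The coding sequence around the Q/R site is shown for all 9 members because RNA editing at this site sets subunits apart in calcium entry. The sequences themselves do not show editing. Each line is 60 bases of the spliced coding strand, 5′ to 3′, from GENCODE release M21 transcripts (GRCm38), with the Q/R codon in capitals, 30 bases before it and 27 after it.
Gria1: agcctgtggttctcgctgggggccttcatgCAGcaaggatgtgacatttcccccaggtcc
Gria2: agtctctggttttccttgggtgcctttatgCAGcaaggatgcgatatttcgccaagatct
Gria3: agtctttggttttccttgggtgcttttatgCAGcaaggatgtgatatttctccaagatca
Gria4: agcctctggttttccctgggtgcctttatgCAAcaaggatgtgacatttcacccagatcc
Grik1: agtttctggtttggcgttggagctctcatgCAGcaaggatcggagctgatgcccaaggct
Grik2: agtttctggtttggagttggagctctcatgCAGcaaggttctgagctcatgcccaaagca
Grik3: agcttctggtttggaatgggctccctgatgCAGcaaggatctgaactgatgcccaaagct
Grik4: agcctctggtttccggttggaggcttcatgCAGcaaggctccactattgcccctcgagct
Grik5: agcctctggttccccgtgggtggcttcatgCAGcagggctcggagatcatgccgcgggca

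The codon was CAG in 8 members and CAA in Gria4. It lies at chr11:57243094-57243096 in Gria1 (exon 11 of 16, plus strand), at chr3:80706911-80706913 in Gria2 (exon 11 of 16, minus strand), at chr9:4464137-4464139 in Gria4 (exon 12 of 17, minus strand) and at chr10:49244329-49244331 in Grik2 (exon 12 of 16, minus strand). In 7 of the 9 genes the 60 bases run across an exon junction, and in Grik4 and Grik5 they lie within 1 exon. The 4 AMPA genes shared 47 to 55 of the 60 bases with each other, and Grik1, Grik2 and Grik3 shared 49 to 54. AMPA and kainate genes shared 36 to 43. Within the kainate family, Grik4 and Grik5 shared 44 with each other and 36 to 42 with Grik1, Grik2 and Grik3. The windows thus did not group by family throughout. Gene counts do not read this codon, so editing was not measured. Despite this likeness members shared few exact stretches. Of all 50-base stretches in their annotated transcripts, at most 0.159% (in Gria4) occurred in another member, and of 30-base stretches at most 0.863% (in Gria4). Inexact matches and matches to other genes were not counted, so confusion of reads was not measured.

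By exon length, Grik3, Gria4, Grik5 and Gria2 stood well above the other 5 subunit genes in both groups. Levels of different genes are compared as CPM (read counts scaled to a common library size with TMM factors) per kilobase of the union of annotated exons. In GFP libraries Grik3 was highest at 41.7 ± 4.04 CPM per kilobase (mean ± SD, n = 3, as below), followed by Gria4 at 30.3 ± 2.96, Grik5 at 27.8 ± 1.17 and Gria2 at 23.6 ± 2.19. Far below came Gria3 (3.21 ± 0.475 CPM per kilobase), Grik2 (2.88 ± 0.545) and Grik4 (2.04 ± 0.382), then Grik1 (0.212 ± 0.0306) and Gria1 (0.0115 ± 0.00659). The ranges over GFP libraries overlapped between Gria4 and Grik5, between Gria3 and Grik2, and between Grik2 and Grik4, so the ranges alone did not order these neighbours. Within libraries Gria4 stood above Grik5 and Grik2 above Grik4 in 3 of 3, and Gria3 above Grik2 in 2 of 3. In G392E-NS libraries Grik3 was again highest at 44.2 ± 10.7 CPM per kilobase, and Grik5 (27.7 ± 0.830), Gria2 (24.2 ± 7.31) and Gria4 (20.3 ± 2.39) followed, where the ranges of Grik5 and Gria2 and those of Gria2 and Gria4 overlapped. There Grik2 (7.28 ± 0.870) stood above Gria3 (4.48 ± 1.02) in 3 of 3 libraries, and Gria1 (0.273 ± 0.0164) overlapped with Grik1 (0.246 ± 0.116). Per kilobase of coding length, Grik2 in G392E-NS libraries (35.4 ± 4.23 CPM) came nearer to Gria4 (47.2 ± 5.58) and Grik5 (48.8 ± 1.46).

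**Figure D1:**
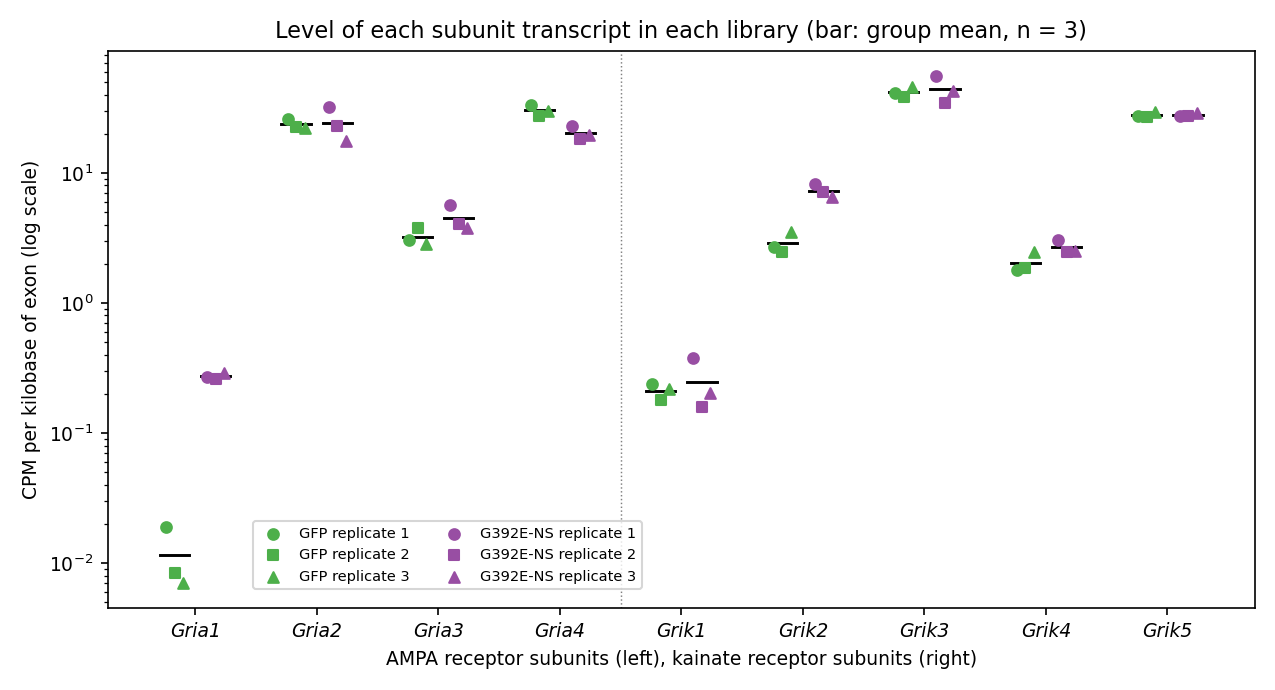
CPM per kilobase of union exon length (log axis) of each subunit gene in each of the 6 libraries, green for GFP and purple for G392E-NS, with the replicate given by the symbol and the group mean by a bar. Gria1 and Grik2 lie higher and Gria4 lower in every G392E-NS library, and Grik5 lies between 26.99 and 29.2 in all 6.

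All 9 members passed the low-count filter, Gria1 only through its counts in G392E-NS libraries. Gria1 and Grik2 rose with G392E-NS and Gria4 fell, while the other 6 members did not pass. The threshold was 0.05 on the p-value of the edgeR quasi-likelihood test, adjusted by the Benjamini-Hochberg method over 13775 genes. Over all genes tested 6.15% were called, 4.79% higher and 1.36% lower, and nothing is read from the members' count because the comparison was known when they were picked. The same 3 members were those whose CPM ranges did not overlap between the groups, which was so for 28.6% of all genes tested. The median log2 fold change was 0.23 over the members and −0.0047 over all genes tested. These are bulk samples, so fewer cells of a type and less RNA per cell cannot be told apart.

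The groups also differed in genes of the sex chromosomes. Xist, the RNA of the inactive X chromosome, had 1.51 ± 0.0829 CPM with GFP and 1493 ± 345 CPM with G392E-NS (adjusted p = 2.47e-06 by edgeR). The Y-linked genes Uty, Ddx3y, Kdm5d and Eif2s3y were called lower with G392E-NS, with log2 fold changes of −1.11, −0.93, −0.97 and −0.92 (adjusted p = 0.000844 to 0.00348). Their part in the differences of the 9 members was not tested.

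Among the AMPA subunits, Gria1 encodes GluA1, a main subunit of mature forebrain neurons whose insertion at synapses accompanies potentiation (ENSMUSG00000020524, GRCm38 chromosome 11, 57011387 to 57330244). It had 2, 1 and 1 counts in GFP replicates 1 to 3 and 39, 37 and 27 counts in G392E-NS replicates 1 to 3. In CPM this was 0.115, 0.0501 and 0.0427 against 1.62, 1.57 and 1.76. It was nearly undetected in GFP cells and low but even across the G392E-NS libraries, with a wide gap between the groups. The depth-scaled ratio of 103 counts to 4 was 24.8 (95% exact counting interval 9.40 to 92.8, which covers counting error only). The fitted log2 fold change was 4.51 (SE 0.39, adjusted p = 0.000797 by edgeR), and the call held in all 14 alternative settings, with adjusted p of 2.84e-06 to 0.0130. These settings reuse the same libraries. Gria1 passed the low-count filter only through its G392E-NS counts, and its family was picked with this comparison known. The p-values are therefore a description and lend no support.

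Gria4 encodes GluA4, a subunit of fast-gating receptors found early in development and in parvalbumin interneurons, glial precursors and Bergmann glia (ENSMUSG00000025892, chromosome 9, 4417896 to 4796234). It had 211.0, 174 and 188 CPM in GFP replicates 1 to 3 and 144, 115 and 124 CPM in G392E-NS replicates 1 to 3. The lowest GFP library was above the highest G392E-NS library. The means were 191 ± 18.7 and 128 ± 15.1 CPM. Gria4 thus fell by a fitted factor of 1.495 (log2 fold change −0.58, SE 0.12, adjusted p = 0.0291 by edgeR). This call did not survive the removal of GFP replicate 1, 2 or 3 (adjusted p = 0.126, 0.0677 and 0.0704) or of G392E-NS replicate 2 or 3 (0.0752 and 0.0710), although the fold change stayed between −0.69 and −0.50.

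Gria2 encodes GluA2, the subunit whose edited form blocks calcium entry (ENSMUSG00000033981, chromosome 3, 80681450 to 80802835). Its levels were 406, 349 and 345 CPM in GFP libraries and 499, 356 and 274 CPM in G392E-NS libraries. The G392E-NS libraries reached both above and below all GFP libraries, with replicate 1 highest and replicate 3 lowest. The log2 fold change was 0.04 (SE 0.20, adjusted p = 0.935 by edgeR) and its sign turned in 5 of 14 settings, total-count scaling among them, to as low as −0.24 without G392E-NS replicate 1. Its coefficient of variation was 9.28% in GFP and 30.2% in G392E-NS libraries, where the median gene of at least 10 CPM had 6.41% and 11.8%.

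Gria3 encodes GluA3 and is the only X-linked member (ENSMUSG00000001986, chromosome X, 41400854 to 41678601). It had 30.04, 37.0 and 28.04 CPM in GFP libraries and 55.5, 40.0 and 36.8 CPM in G392E-NS libraries. The groups overlapped by the margin between GFP replicate 2 and G392E-NS replicate 3, and the test was not passed (log2 fold change 0.48, SE 0.18, adjusted p = 0.156 by edgeR). Among the 493 X-linked genes tested other than Xist, 29 were higher and 15 lower, with a median log2 fold change of −0.05. The part of X-linkage in the Gria3 values was not tested.

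Among the kainate subunits that form channels on their own, Grik2 was the called member. It encodes GluK2, a principal kainate receptor subunit whose RNA is also edited (ENSMUSG00000056073, chromosome 10, 49094833 to 49788766). Its levels were 35.3, 32.8 and 46.4 CPM in GFP replicates 1 to 3 and 109, 94.5 and 85.9 CPM in G392E-NS replicates 1 to 3. Every G392E-NS library stood well above every GFP library. The means were 38.2 ± 7.22 and 96.4 ± 11.5 CPM. Grik2 thus rose by a fitted factor of 2.52 (log2 fold change 1.34, SE 0.15, adjusted p = 0.00279 by edgeR). The call held in all 14 alternative settings, with log2 fold changes of 1.22 to 1.501.

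Grik3, which encodes GluK3, had the highest level per kilobase of exon in both groups (ENSMUSG00000001985, chromosome 4, 125490700 to 125714173). It had 368, 341 and 413 CPM in GFP libraries and 498, 307 and 385 CPM in G392E-NS libraries. Per kilobase of coding length Gria2 had 138 ± 12.9 and Grik3 136 ± 13.2 CPM in GFP libraries, so the first place depends on the length used. The G392E-NS libraries enclosed the GFP range of Grik3, and the log2 fold change was 0.08 (SE 0.18, adjusted p = 0.817 by edgeR), which became −0.13 without G392E-NS replicate 1. Grik1, which encodes GluK1 (ENSMUSG00000022935, chromosome 16, 87895900 to 88290265), was scarce, with 28, 24 and 34 counts in GFP and 61, 25 and 21 counts in G392E-NS libraries. Only G392E-NS replicate 1 stood apart from the others, and the log2 fold change of 0.23 (SE 0.36, adjusted p = 0.747 by edgeR) turned to −0.26 without it.

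The high-affinity subunits did not pass the test. Grik5, which encodes GluK5 (ENSMUSG00000003378, chromosome 7, 25009849 to 25072346), was the steadiest member, with 141, 140 and 151 CPM in GFP and 140, 141 and 148 CPM in G392E-NS libraries. The groups covered nearly the same range, with coefficients of variation of 4.21% and 2.99%. Its log2 fold change was −0.01 (SE 0.08, adjusted p = 0.970 by edgeR). Grik4, which encodes GluK4 (ENSMUSG00000032017, chromosome 9, 42518135 to 42944493), had 10.6, 11.1 and 14.8 CPM with GFP and 18.1, 14.6 and 15.1 CPM with G392E-NS. GFP replicate 3 reached into the G392E-NS range, and the log2 fold change of 0.38 (SE 0.17) had an adjusted p of 0.225 by edgeR.

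**Figure D2:**
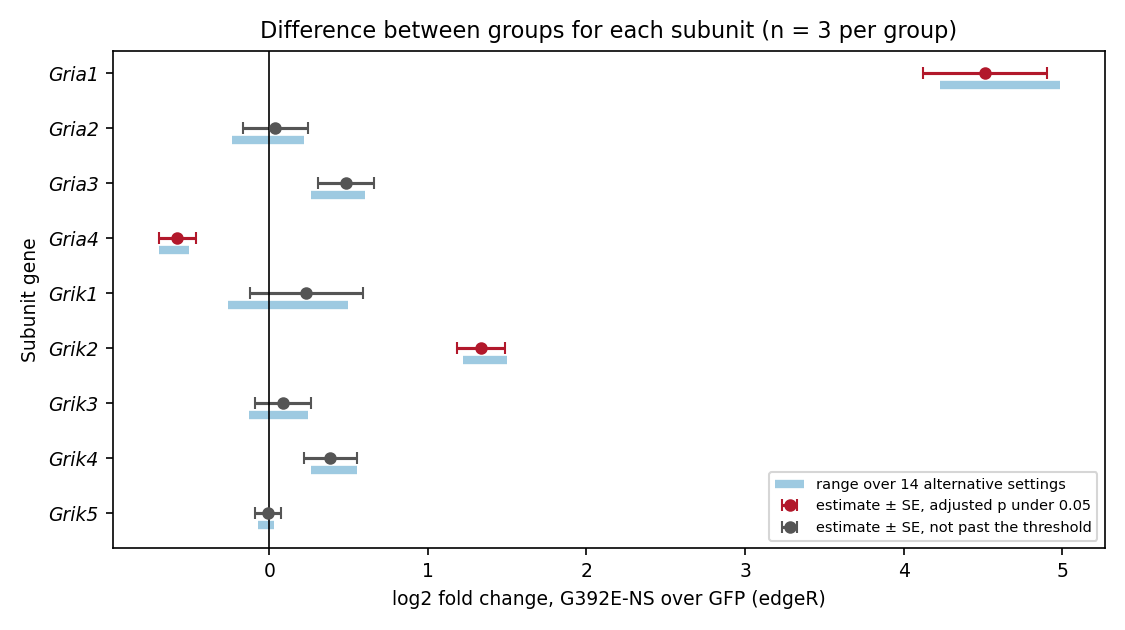
Log2 fold change of G392E-NS over GFP for each subunit gene (dot, with SE as the bar; red for an adjusted p under 0.05 by edgeR), and beneath it in blue the range of the estimate over 14 alternative settings. The ranges of Gria1, Gria3, Gria4, Grik2 and Grik4 keep to one side of 0, whereas those of Gria2, Grik1, Grik3 and Grik5 cross it.

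The mix of AMPA subunits held less Gria4 and more Gria2 and Gria3 in every G392E-NS library than in any GFP library, by exon length. Shares are of the summed CPM per kilobase of the family in each library and were not tested, since the members were chosen with results known and an exact permutation test of 3 against 3 cannot go below 0.10. Gria4 made up 53.4%, 51.3% and 54.4% of the AMPA sum in GFP replicates 1 to 3 and 37.6%, 40.1% and 47.5% in G392E-NS replicates 1 to 3. Gria2 made up 41.7%, 41.7% and 40.4% in GFP and 52.7%, 50.4% and 42.7% in G392E-NS libraries. The shares of a family make up a fixed total, so a lower Gria4 share raises the other shares. The level of Gria2 itself was not called (23.6 ± 2.19 against 24.2 ± 7.31 CPM per kilobase), nor was that of Gria3 (3.21 ± 0.475 against 4.48 ± 1.02). All G392E-NS libraries lay below GFP in the Gria4 share and above it in the Gria2 share, with G392E-NS replicate 3 nearest to the GFP values in both. The Gria2 shares overlapped between the groups when the longest transcript replaced exon length.

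The share of Gria3 ranged from 4.86% to 6.97% in GFP and, higher, from 8.93% to 9.25% with G392E-NS. That of Gria1 reached at most 0.705% in any library. The absolute differences between the group means, summed over the subunits and halved, came to 11.3 percentage points of the AMPA mix. By the same measure single libraries lay 0.807 to 5.91 points from the mean of their own group. The difference was 8.51 points when coding length (the longest annotated coding sequence) replaced exon length. Which subunit leads does depend on the length: by coding length Gria2 made up 62.6 ± 0.639% and Gria4 31.9 ± 1.23% in GFP libraries, against 68.2 ± 4.39% and 23.4 ± 4.0% in G392E-NS libraries. Exon length also covers untranslated and alternative exons, and for Gria2 it was 15548 bases beside 2649 coding bases.

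In the kainate family the share of Grik2 was 3.65%, 3.56% and 4.30% in GFP replicates 1 to 3 and 8.71%, 9.999% and 8.04% in G392E-NS replicates 1 to 3. The groups were well apart. The share of Grik4 was at most 3.05% in any GFP library and at least 3.13% in any with G392E-NS, but the ranges overlapped when coding length was used. Grik3 (55.8 ± 0.958% against 53.3 ± 5.43%) and Grik5 (37.4 ± 1.48% against 34.2 ± 4.89%) overlapped between the groups and together made up most of the family in every library. By coding length the Grik3 shares did not overlap, at 66.7 ± 0.591% in GFP and 60.9 ± 4.89% in G392E-NS libraries. The mix as a whole differed by 5.62 points between group means, no more than the 5.66 points by which the most distant library lay from the mean of its own group. By coding length that difference was 8.70 points against at most 5.15.

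The high-affinity pair Grik4 and Grik5 together held 40.1 ± 1.30% of the kainate sum in GFP libraries and 37.5 ± 4.97% with G392E-NS, ranges that overlapped. The summed AMPA level was 57.1 ± 4.82 CPM per kilobase in GFP and 49.2 ± 10.3 in G392E-NS libraries, and the summed kainate level 74.7 ± 6.10 and 82.1 ± 11.5. Both sums overlapped between the groups. Their ratio, AMPA over kainate, was 0.858, 0.774 and 0.674 in GFP and 0.646, 0.638 and 0.511 in G392E-NS libraries, lower in all 3. Their ranges overlapped with the longest transcript or coding length in place of exon length.

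**Figure D3:**
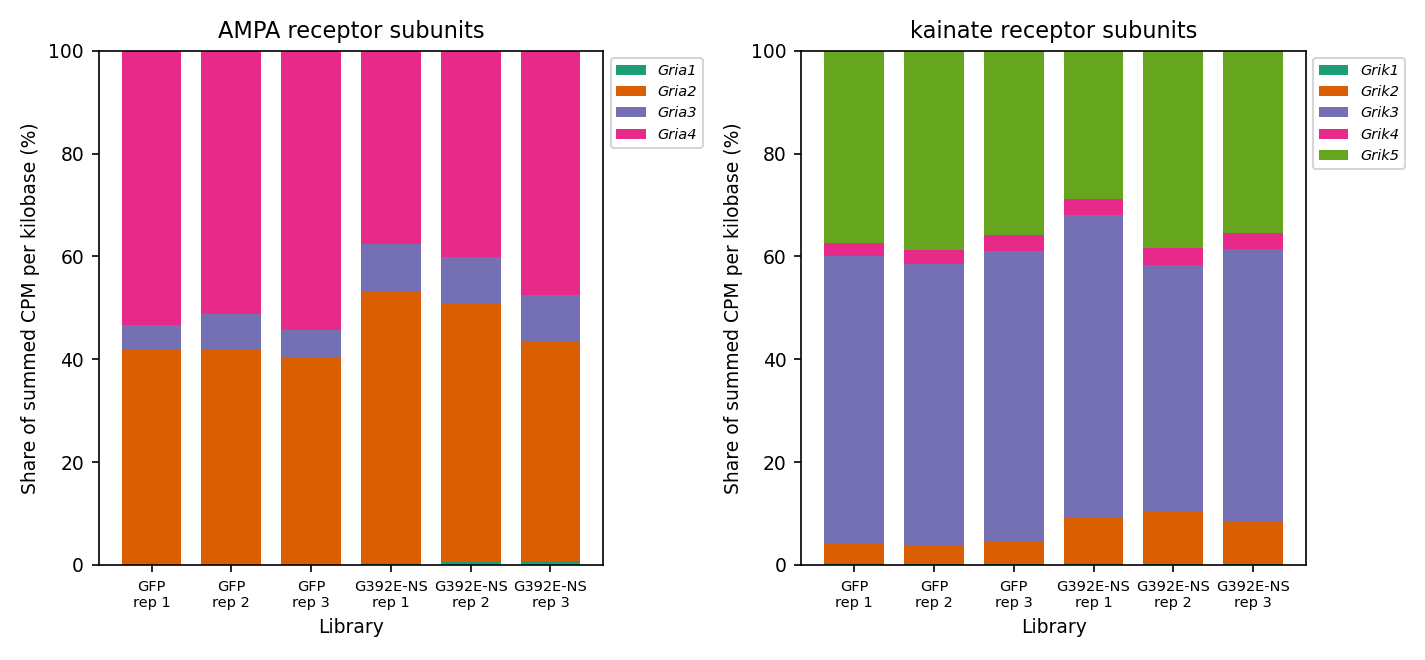
Share of each subunit (% of the family's summed CPM per kilobase of union exon length) in each library, AMPA receptors on the left and kainate receptors on the right; each bar is 1 library and stacks all shares of its family. Gria4 holds 51.3% to 54.4% of GFP bars and 37.6% to 47.5% of G392E-NS bars, the Grik2 band is wider in G392E-NS bars, and Gria1 and Grik1 are too scarce to be seen clearly.

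Of 50 partner genes of these receptors in 7 lists, 44 were tested, of which 1 rose and 1 fell (4.55%, a share near the 6.15% of all genes tested). The 15 AMPA auxiliary subunits, membrane proteins that set receptor gating and delivery, had 12 tested, 1 higher and none lower, with a median log2 fold change of 0.28. Shisa7, a member of the CKAMP44 family of auxiliary proteins, averaged 15.7 ± 3.42 CPM with GFP against 30.3 ± 7.80 CPM with G392E-NS, and rose (log2 fold change 0.95, SE 0.22, adjusted p = 0.0432 by edgeR). It was no longer called without GFP replicate 1 or 2 (adjusted p = 0.158 and 0.140) or without G392E-NS replicate 1 or 3 (0.0659 and 0.0707), nor by total-count scaling (0.0566) or limma-voom (0.0549). The TARP genes Cacng4 and Cacng7, which encode AMPA auxiliary subunits, had 172 ± 5.22 and 170 ± 15.0 CPM with GFP and 132 ± 26.2 and 189 ± 20.0 CPM in G392E-NS libraries, with adjusted p of 0.154 and 0.457. Shisa6, another auxiliary protein, had 3.62 ± 1.005 and 1.19 ± 0.585 CPM (log2 fold change −1.61, adjusted p = 0.0585). Without G392E-NS replicate 1 the list of AMPA auxiliary subunits held no gene called higher and 2 called lower.

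Of 9 extracellular organisers tested, which cluster receptors from outside the cell, 1 fell, and the median log2 fold change was 0.02. Lrrtm4, an adhesion protein that binds presynaptic proteoglycans, averaged 31.3 ± 2.75 CPM with GFP against 15.6 ± 4.87 CPM with G392E-NS (log2 fold change −0.99, SE 0.20, adjusted p = 0.0302 by edgeR). This call was lost without any 1 GFP replicate (adjusted p = 0.120, 0.105 and 0.0575) and without G392E-NS replicate 2 or 3 (0.0781 and 0.0776), while 2 of the list were called lower without replicate 1. The C1q-like ligand C1ql3, which binds kainate receptors, had 7.14 ± 1.32 and 11.3 ± 2.74 CPM and did not pass (adjusted p = 0.124).

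None of the other 5 lists held a call. The kainate auxiliary subunit genes Neto1 and Neto2 had log2 fold changes of −0.19 and −0.10 (adjusted p = 0.532 and 0.765 by edgeR), with 128 ± 17.1 and 180 ± 14.5 CPM in GFP and 112 ± 24.5 and 169 ± 37.5 CPM in G392E-NS libraries. Among 8 genes of AMPA receptor biogenesis (median log2 fold change 0.11), the nearest to the threshold was Cpt1c, which encodes a brain carnitine palmitoyltransferase-like protein that binds GluA1, at 0.46 (SE 0.14, adjusted p = 0.0975). Among 9 cytoplasmic partners tested (median 0.05) it was Gripap1, a GRIP-associated trafficking protein, at −0.29 (SE 0.09, adjusted p = 0.0911).

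The editing enzyme genes Adarb1 and Adar did not pass, at 35.4 ± 2.40 against 36.3 ± 6.41 CPM for Adarb1 (adjusted p = 0.901) and 103 ± 5.38 against 98.9 ± 2.38 CPM for Adar (0.741). Adarb2, a relative without known editing activity, had an adjusted p of 0.603. The delta receptor gene Grid1 had a log2 fold change of −0.24 and did not pass (adjusted p = 0.441).

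**Figure D4:**
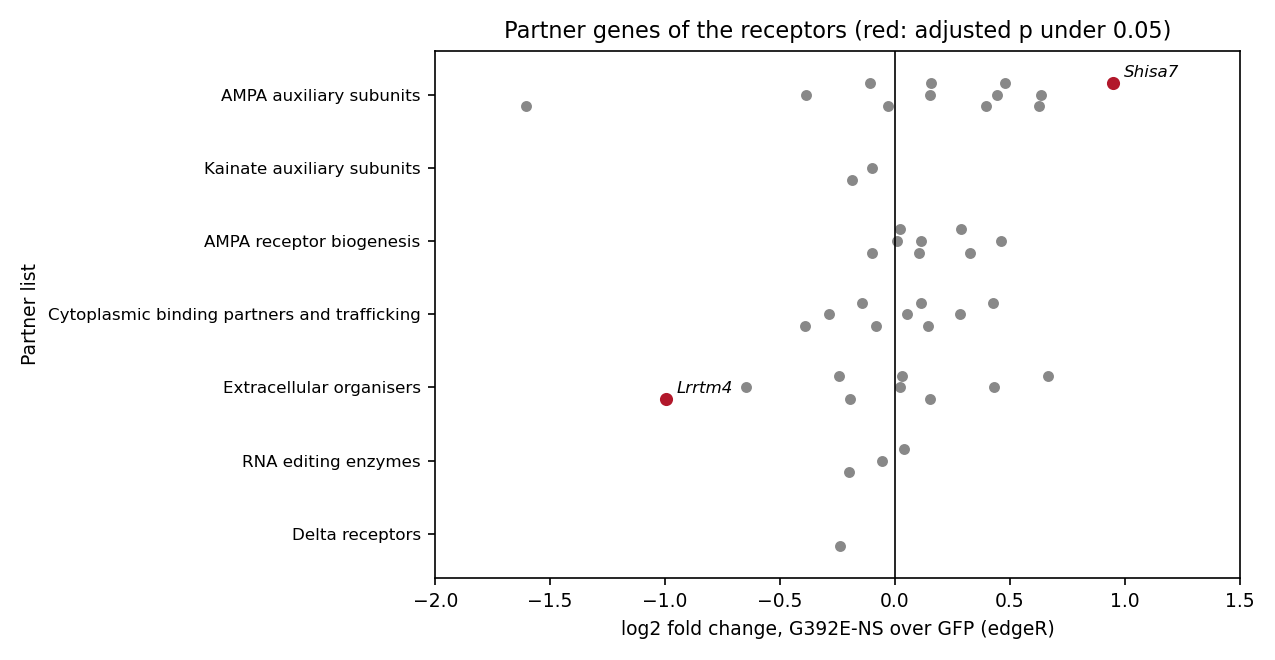
Log2 fold change of G392E-NS over GFP (edgeR) for the 44 partner genes tested, 1 dot a gene, in 7 lists by role, with red for an adjusted p under 0.05. Shisa7 at 0.95 and Lrrtm4 at −0.99 are the called genes, and Shisa6 at −1.61 is not called.

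Markers of several cell types were measured in the same libraries. The summed levels of the astrocyte and the GABA neuron lists did not overlap between the groups, and those of the other 8 lists did. Of single genes tested, 28.6% did not overlap, so nothing is read from this count of lists. Marker calls stand beside a background of 4.79% of all genes tested called higher, 1.36% called lower and 49.3% with a log2 fold change above 0. Summed astrocyte markers were 2903 to 4078 CPM in GFP and 5796 to 9054 CPM in G392E-NS libraries, with 2 of 7 called higher (Slc1a2 and Aldh1l1) and 6 of 7 above 0. Most of this sum was Slc1a3 (means of 2294 and 3779 CPM) and Slc1a2 (966 and 2412 CPM). Gfap, Slc1a3 and S100b were also higher in every G392E-NS library than in any GFP library. They were not called (adjusted p = 0.0511, 0.0729 and 0.0969 by edgeR), and Gfap had 23 counts in GFP and 722 in G392E-NS libraries. Aqp4 had a log2 fold change of −0.14 and Gja1 1.36, and the groups overlapped in both. Neuron markers summed to 3342 to 3834 and 3074 to 4257 CPM, with 1 of 7 tested called lower (Elavl4) and 4 of 7 above 0. Map2 made up most of this sum, at 2747 ± 127 and 2628 ± 400 CPM. Syt1 and Snap25 were higher in every G392E-NS library than in any GFP library but were not called (adjusted p = 0.0640 and 0.176 by edgeR). Stmn2, the neuron marker that was not tested, was nearly absent, with 12 counts in GFP and 2 in G392E-NS libraries. Markers of oligodendrocyte precursors summed to 3170 to 3864 and 2723 to 5019 CPM, with 1 of 5 called higher (Pdgfra) and 4 of 5 above 0. Those of oligodendrocytes summed to 23.0 to 47.8 and 27.4 to 35.8 CPM, with 1 of 3 tested called higher (Mog) and 2 of 3 above 0. Progenitor markers summed to 1609 to 1655 and 1443 to 1944 CPM, with 1 of 5 called lower (Nes) and 2 of 5 above 0. Each of these calls was lost with at least 1 library left out: the highest adjusted p was 0.0638 for Slc1a2 (without GFP replicate 2; also lost without replicate 3), 0.126 for Aldh1l1, 0.0929 for Elavl4, 0.172 for Pdgfra, 0.117 for Mog and 0.170 for Nes (all without GFP replicate 1).

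GABA neuron markers summed to 105 to 109 and 63.7 to 76.1 CPM, nearly all of it Gad1, which was called lower except without GFP replicate 1 or 2 (adjusted p = 0.0539 and 0.0518), while Slc32a1, the vesicular GABA transporter gene, had 3 and 1 counts. The glutamate transporter genes Slc17a7 and Slc17a6, which define glutamatergic neurons, had 0 counts in GFP and 4 and 1 in G392E-NS libraries. The other 2 markers of these neurons were also low: Tbr1 had 40 and 38 counts and Neurod6 12 and 7, and the 4 summed to 0.326 to 1.06 CPM over all libraries. The 4 microglia markers reached at most 0.173 CPM in sum, with Csf1r at 0 in all libraries. The 3 endothelial markers reached at most 1.19 CPM, with Cldn5 at 0, and the 4 fibroblast markers at most 1.74 CPM, with Dcn at 0. The part of cell composition in the Gria1, Gria4 and Grik2 differences was not tested. Serpini1, the mouse neuroserpin gene, had 4.69 ± 0.482 and 5.71 ± 0.923 CPM (adjusted p = 0.419), which does not check the construct, as the labels leave the species of the introduced gene unnamed.

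Patterns were compared for Gria4 and Grik3, the members with the highest mean over all 6 libraries per kilobase of exon in their families; by other lengths Gria2 led the AMPA family. The genes most like each were found by the root mean square difference of log2 CPM over the 6 libraries, after the mean was taken off each gene. For Gria4 they were the imprinted gene Peg3 (difference 0.0626), Plcl2 (0.0717) and Dnmt3a, which encodes a DNA methyltransferase (0.0780), against a median of 0.365 over all genes tested. For Grik3 they were B3gat2 (0.0331), Cdyl2 (0.0551) and BC051077 (0.0701), against a median of 0.297. The difference between the groups was part of the pattern compared, so the fold changes of these genes are not given as results.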

How the data were processed

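The authors deposited raw read counts, whole numbers per Ensembl gene in each of the 6 libraries. GRCm38 is the build, and HTSeq 0.6.1, TopHat2 2.0.12, DESeq2 1.4.5 and R 3.2.2 are the tools, per the submitters' processing notes, which give no role for any. The annotation release, strand setting and filters: not given in the sources used here. Symbols, positions and lengths came from GENCODE release M21 (GRCm38), which matched 37693 of 39179 genes.

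The counts were tested with edgeR 4.0.16 in R 4.3.3: filterByExpr, TMM factors, a quasi-likelihood F test of G392E-NS against GFP with no covariate, and Benjamini-Hochberg adjustment over 13775 genes at 0.05. The steps were tested on simulated data. The members and lists were chosen with earlier results of these data known. The text names all 9 members and, of each partner list, up to 4 called genes or the gene nearest the threshold. Cacng4, Cacng7, Shisa6, C1ql3, Neto2, Adar, Adarb1, the Y-linked genes and the marker genes were chosen after their values were seen. Replicates were no duplicates (chi-square per degree of freedom 8.02 to 56.4).

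The alternatives tried were DESeq2 1.42.0, limma-voom (limma 3.58.1), scaling by RLE, by upper quartiles or by total counts, no filter, at least 1 CPM in 3 libraries, a replicate block, each library left out, and other lengths. Coding length, and the settings for partner and marker genes, were added after seeing the data. Small RNA genes within exons of Gria2, Gria3, Gria4 and Grik4 held 250, 0, 6 and 0 counts.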

Additional observations from a re-analysis of the deposited data

How the results depend on the processing

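Gria1 and Grik2 kept direction and call in all 14 settings. Gria3 and Grik4 kept direction and stayed uncalled. Gria4 kept direction and lost its call in 6, 5 of them with a library left out. The uncalled Gria2 turned sign by total-count scaling (−0.022), by limma-voom (−0.017), with the replicate block (−0.0014), and when GFP replicate 3 (−0.0043) or G392E-NS replicate 1 (−0.24) was left out. Without the latter Grik1 and Grik3 also turned (−0.26 and −0.13), and Grik5 turned without GFP replicate 3 (0.028) or G392E-NS replicate 2 (0.0089). With 1 library left out the log2 fold changes ranged from −0.24 to 0.22 for Gria2, −0.26 to 0.49 for Grik1, −0.13 to 0.25 for Grik3 and −0.032 to 0.028 for Grik5. The causes were not tested.

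Over all genes 847 were called, 660 of them higher. The counts were 1450 and 1084 by DESeq2, 1579 and 1205 when no low-count filter was used, and 242 to 1373 and 196 to 981 with 1 library left out. Same-numbered replicates did not deviate together (correlations 0.034, −0.38 and −0.25). Of the differently numbered pairs, GFP replicate 2 with G392E-NS replicate 3 had 0.35, and GFP replicate 3 with G392E-NS replicate 2 had 0.31. The remaining pairs lay between −0.060 and 0.044. Deviations from a mean of 3 libraries are tied to each other, so these values do not decide whether libraries were paired. With the replicate block 267 genes were called, 217 of them higher, and Gria4 had an adjusted p of 0.0524 by edgeR. The block also ended the calls of Shisa7 (0.135), Slc1a2 (0.0810), Aldh1l1 (0.0725), Elavl4 (0.0665), Pdgfra (0.121) and Nes (0.113). With a library left out the AMPA shift was 9.20 to 14.2 points and the kainate shift 5.23 to 6.15. The log2 ratios of the summed levels were −0.40 to −0.10 for AMPA and 0.03 to 0.23 for kainate subunits. Gria1, at 4 counts in GFP, and Grik1 are limited by depth.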

Other observations

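Windows of 300 bases around the RefSeq transcription start (GRCm38.p6) were given for 6 of the 9 members. They held 26 CpG dinucleotides in Gria2, 17 in Gria4, 26 in Grik2, 50 in Grik3, 42 in Grik4 and 10 in Grik5, where the median of 32851 such windows was 7. Their GC content was 59.7% to 82.0%, against a median of 52.7%. Gria1, also a called member, had no such window. In CpG number the called members Gria4 and Grik2 lay within the range of the 4 others. In GC content Gria4 and Grik2, at 59.7% and 64.7%, were the lowest of the 6, with the uncalled Gria2 next at 65.7%. Gria4 was lower and Grik2 higher with G392E-NS, and a link of GC content to the calls was not tested.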
